A study of Mus musculus with 23 samples.

Results

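Pre-leptotene cells of wild-type mice were compared with wild-type spermatogonia on 7 of the 23 arrays of the series, 3 of pre-leptotene and 4 of spermatogonia, taken by their labelled fraction. All came from testes of C57BL/6J x DBA/2J F1 males aged 10 to 16 weeks, and the cells were sorted on a flow cytometer after staining of DNA with Hoechst dye. Arrays of 1 fraction are labelled as biological replicates, and what each holds (1 animal or a pool) is not given in the sources used here. The other wild-type arrays covered leptotene/zygotene (3), early (1), mid (2) and late (1) pachytene, diplotene (2) and round spermatids (4). Spo11-/- males of the same age, which lack the enzyme that makes meiotic DNA breaks and whose strain the labels do not give, provided 1 array each of pre-leptotene cells, spermatogonia and leptotene/zygotene cells.

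Spermatogonia are the mitotic germ cells of the testis, and the last of their divisions produces pre-leptotene spermatocytes. Pre-leptotene cells pass through premeiotic S phase, in which DNA is copied for the last time before the meiotic divisions. Retinoic acid induces Stra8 at this step, and meiotic cohesins such as those with Rec8 are loaded during replication. Replication genes are classically driven by E2F factors, while genes of the G2 and M phases are commonly controlled through the CHR, a short promoter element bound by the DREAM and MuvB complexes.

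All levels are given as log2 of the deposited intensity plus 1, and all differences as pre-leptotene minus spermatogonia. Differences were fitted with limma over 13087 genes and the 20 wild-type arrays, and a gene was called higher or lower where its Benjamini-Hochberg adjusted p was below 0.05 and its fitted difference at least 1. Standard errors (SE) are those of the fit. The 7 arrays correlated at Pearson r of 0.952 to 0.985 over probe sets, and at most 1.16% of values were exactly equal in any pair. In bulk RNA, fewer cells of a type and less RNA per cell cannot be told apart.

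Marker levels did not separate the fractions along their labels. Stra8 read 11.83, 11.45 and 11.52 in pre-leptotene arrays, against 11.46, 10.79, 10.95 and 12.29 in spermatogonia (difference 0.23 ± 0.79 SE, limma adjusted p = 1). Kit, the receptor of differentiating spermatogonia, read 11.02, 11.36 and 11.93 in pre-leptotene arrays, against 10.60, 10.71, 11.48 and 10.98 in spermatogonia. The 2 fractions overlapped for both genes. None of 7 meiotic entry genes, 18 stem and progenitor genes or 12 differentiating spermatogonia genes was called. Of all genes tested 1.7% were called, so lists of this size would have few calls or none in any case. Their median differences were 0.23, 0.24 and 0.18, against -0.01 over all genes tested. The retinoic acid list had a median of -0.02 over 14 genes.

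Spermatogonia array 4 stood apart in these markers. It was the highest of the 7 for Gfra1 (7.54), a receptor of stem spermatogonia, and for Etv5 (7.77), a factor of their renewal. It was also the lowest for Meioc (8.58) and Ythdc2 (8.94), RNA regulators needed for meiotic entry, and for Rec8 (6.87). Other members of these lists went the other way. Array 4 was the highest of the 7 for Stra8 (12.29), of the meiotic entry list. The same held for Sohlh1 (9.55) and Sohlh2 (9.26), of the differentiating spermatogonia list. The other 6 arrays ranged from 5.13 to 6.86 for Gfra1 and from 10.87 to 11.80 for Meioc. The probe set of Spo11 itself read 4.80, 4.30 and 5.21 in Spo11-/- pre-leptotene cells, spermatogonia and leptotene/zygotene cells, against 4.6 to 7.03 in the 7 wild-type arrays, and whether it lies in the deleted part is not given. Without array 4 the median difference was 0.13 for meiotic entry (4 of 7 positive), 0.37 for stem and progenitor, 0.26 for differentiating spermatogonia and 0.10 for retinoic acid genes.

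Of the 13087 genes, 223 were called, 8 higher and 215 lower in pre-leptotene cells (1.7% of genes tested, 0.0611% higher and 1.64% lower). Genes high in round spermatids (mean of the 4 spermatid arrays at least 6 and at least 2 above the mean of the 3 Spo11-/- arrays) made up 183 of the 215, and markers of somatic cells 9, of which Aif1, Col3a1 and Dcn are in both groups. The other 34 called genes, 8 higher and 26 lower, were in neither of these groups and not among genes high in late prophase. The counts moved with single arrays. Without pre-leptotene array 1, 2 and 3 in turn, 38, 233 and 8 genes were called, and without spermatogonia array 1, 2, 3 and 4 in turn 23, 56, 428 and 596. Arrays that share a replicate number deviated together. With that number as a block 760 genes were called (5.81%), 49 higher (0.374%) and 711 lower (5.43%). Spermatogonia array 4 has no pre-leptotene partner, so the block also takes it out of the fitted difference. A fit of the 2 fractions alone called none, with 1222 genes at an unadjusted p below 0.05. Median centring called 8 higher and 28 lower, quantile normalization 6 and 32, and log2(value + 16) 6 and 48.

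The 8 higher genes included regulators of division and chromosome cohesion. Ccnf, the F-box protein cyclin F, which targets cell cycle proteins for degradation, read 9.22, 9.18 and 9.33 in pre-leptotene arrays, against 7.90, 7.64, 7.67 and 8.72 in spermatogonia (difference 1.26 ± 0.26 SE, limma adjusted p = 0.0375). Sgo2a, shugoshin 2, which protects centromeric cohesin in meiosis, read 9.13, 8.89 and 9.68 in pre-leptotene arrays, against 8.47, 7.82, 8.16 and 8.25 in spermatogonia (difference 1.06 ± 0.23 SE, limma adjusted p = 0.0395). Every pre-leptotene array lay above every spermatogonia array for both genes.

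Sapcd2, a regulator of spindle orientation, read 6.22, 6.31 and 6.67 in pre-leptotene arrays, against 4.93, 4.63, 4.91 and 5.54 in spermatogonia (difference 1.40 ± 0.27 SE, limma adjusted p = 0.0348). Banp, a DNA-binding protein of unmethylated CpG promoters, read 7.75, 8.51 and 8.01 in pre-leptotene arrays, against 6.87, 6.34, 6.97 and 7.10 in spermatogonia (difference 1.27 ± 0.25 SE, limma adjusted p = 0.0348). Both again had no overlap between the fractions, and 2 further probe sets of Sapcd2 differed in the same direction by 0.67 and 0.51.

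Lad1, which encodes the anchoring filament protein ladinin, was below background in spermatogonia. It read 5.78, 5.24 and 6.50 in pre-leptotene arrays, against 3.52, 3.07, 3.24 and 3.46 in spermatogonia (difference 2.52 ± 0.29 SE, limma adjusted p = 0.000773). Every spermatogonia array was below log2 4, taken here as background, so that the rise is given as at least 1.84 on the log2 scale. Plch2, a phospholipase C, read 6.12, 4.64 and 5.31 in pre-leptotene arrays, against 3.94, 3.19, 2.71 and 4.12 in spermatogonia (difference 1.87 ± 0.37 SE, limma adjusted p = 0.0348). Only array 4 of spermatogonia was above background for Plch2, so that the size rests on values below it in the others. Proser2 differed by 1.02 ± 0.23 (a second probe set by 0.30 ± 0.31) and the predicted gene Gm4432 by 1.59 ± 0.37. The fractions did not overlap for any of these 4 genes. Over all 223 called genes, 64 of 84 further probe sets differed in the direction of the call and 20 in the opposite one.

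Single arrays decided most of these calls. Without pre-leptotene array 3, Plch2, Sapcd2, Banp, Ccnf, Sgo2a and Proser2 missed the threshold, and the same 6 missed it without spermatogonia array 1 or 2. Without pre-leptotene array 1 all of these but Banp missed it, and without array 2 Banp did. Lad1 passed it with each of the 7 arrays left out. The fitted differences of these 7 genes stayed positive under each alternative run, from 1.54 to 2.82 for Lad1, 0.74 to 1.51 for Ccnf and 0.73 to 1.23 for Sgo2a. In the Spo11-/- pair, 6 of the 8 genes were lower by at least 1 in pre-leptotene cells (4.8% of genes tested), the opposite direction, in 1 array each. That pre-leptotene array also had high leukocyte signal, with Ptprc at 12.91, against 6.93 in Spo11-/- spermatogonia, and its part in these differences was not tested. Ccnf read 7.04 in Spo11-/- pre-leptotene cells, against 8.60 in Spo11-/- spermatogonia, and Sgo2a 8.12 against 10.06.

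Genes of the mitotic spindle had the highest median difference of the germ cell and cell cycle lists, 0.58 over 23 genes. This median was added after the data were seen, and the lists were chosen with earlier results of these data known, so the values are a description. None was called (1.7% of all genes tested were), but 22 of the 23 differences were positive, against 6252 of 13087 over all genes tested. Of the 23, 14 had an unadjusted p below 0.05 (10.6% of genes tested, in either direction). In 13 every pre-leptotene array lay above every spermatogonia array (3.05% of genes tested). The list median was 10.67, 11.03 and 11.35 in pre-leptotene arrays, against 10.48, 10.25, 10.92 and 10.58 in spermatogonia, and 10.73, 11.14 and 11.37 in leptotene/zygotene arrays. The list medians of pre-leptotene and spermatogonia arrays overlapped, with pre-leptotene array 1 below spermatogonia array 3. The list also reads high outside these fractions, at 10.44, 10.87, 10.89 and 11.24 in round spermatids.

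Prc1, which bundles microtubules of the central spindle, read 10.44, 11.07 and 11.47 in pre-leptotene arrays, against 9.78, 9.70, 10.13 and 9.62 in spermatogonia (difference 1.19 ± 0.30 SE, limma adjusted p = 0.058). Plk1, the kinase that drives mitotic entry and centrosome maturation, read 10.29, 10.51 and 10.35 in pre-leptotene arrays, against 9.34, 9.41, 9.54 and 8.60 in spermatogonia (difference 1.16 ± 0.30 SE, limma adjusted p = 0.0631). Cdc20, an activator of the anaphase-promoting complex, read 13.29, 13.06 and 13.19 in pre-leptotene arrays, against 12.83, 12.25, 12.61 and 12.29 in spermatogonia (difference 0.69 ± 0.19 SE, limma adjusted p = 0.0777). None of the 3 overlapped, and a second probe set of Prc1 differed by 1.41 ± 0.20. The kinetochore protein Cenpf differed by 0.90 ± 0.28 and was the only list member called with the replicate block (1.03 ± 0.27, limma adjusted p = 0.0389). Prc1 and Plk1 were called without spermatogonia array 3 (1.29 and 1.27, adjusted p = 0.0426 and 0.0475). At the other end were the checkpoint protein Mad2l1, with a difference of -0.06, and the survivin gene Birc5, with 0.05.

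**Figure D1:**
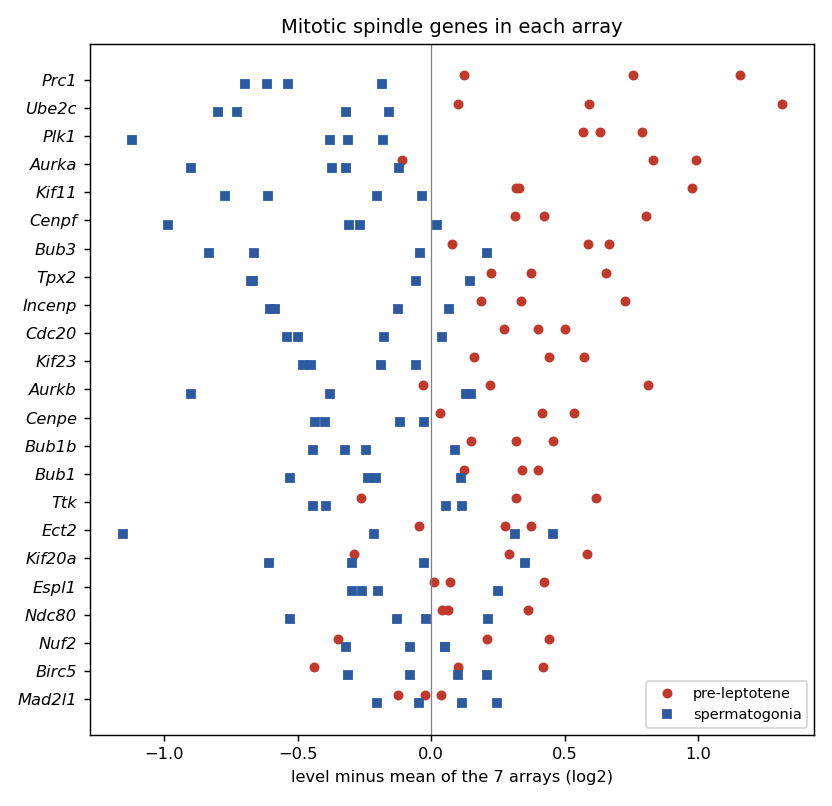
Each row is 1 gene of the mitotic spindle list, and points are single arrays (circles, 3 of pre-leptotene; squares, 4 of spermatogonia) at their log2 level minus the mean of the 7 arrays. In the upper rows, from Prc1 and Ube2c down to Plk1, the circles lie to the right of all squares, while Birc5 and Mad2l1 at the bottom overlap.

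The differences of the spindle list were smaller when the spermatid signal of each array was taken into account. With the spermatid list median of each array as a covariate, its median difference was 0.31, with 19 positive and 2 at an unadjusted p below 0.05. That covariate was itself lower in every pre-leptotene array (6.62, 8.44 and 7.12) than in any spermatogonia array (10.50, 11.93, 9.30 and 8.53). Covariate and fraction can therefore hardly be told apart, and nothing is read from the smaller difference. Over the other alternatives the median difference of the spindle list ran from 0.45 to 0.72. In the Spo11-/- pair, where spermatid genes were near background, it read 10.25 in pre-leptotene cells, against 11.35 in spermatogonia, and 11 of the 23 genes were lower by at least 1 in pre-leptotene cells. Leukocyte markers were high in that pre-leptotene array, as given above for Ptprc. The part of cell composition in these differences was not tested.

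The promoters of the spindle genes Plk1 and Prc1, of Ccnf and of the replication genes Mcm5 and Mcm6 are shown for their contrast in cell cycle motifs. Sequences are 300-base windows of RefSeq on GRCm38.p6, at a transcript start, 5′ to 3′ on the strand of the gene. Plk1 lies at chr7:122159185-122159484 (+), Prc1 at chr7:80294201-80294500 (+), Ccnf at chr17:24251360-24251659 (-), Mcm5 at chr8:75109259-75109558 (+) and Mcm6 at chr1:128359656-128359955 (-), and each window holds the start of its gene in the RefSeq annotation. Capitals mark CHR motifs (TTTGAA or TTCGAA) in the first 3 and E2F motifs (TTTCCCGC, TTTCGCGC, TTTGCCGC or TTTGGCGC) in the last 2, searched on both strands. In Mcm5 and in the first run of capitals of Mcm6, 2 matches on opposite strands overlap.
Plk1: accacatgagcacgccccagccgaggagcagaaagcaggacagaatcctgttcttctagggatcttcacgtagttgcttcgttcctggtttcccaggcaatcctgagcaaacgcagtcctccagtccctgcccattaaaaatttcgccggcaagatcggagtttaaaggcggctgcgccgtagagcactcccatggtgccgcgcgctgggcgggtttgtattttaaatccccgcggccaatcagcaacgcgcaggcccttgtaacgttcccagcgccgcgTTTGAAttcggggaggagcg
Prc1: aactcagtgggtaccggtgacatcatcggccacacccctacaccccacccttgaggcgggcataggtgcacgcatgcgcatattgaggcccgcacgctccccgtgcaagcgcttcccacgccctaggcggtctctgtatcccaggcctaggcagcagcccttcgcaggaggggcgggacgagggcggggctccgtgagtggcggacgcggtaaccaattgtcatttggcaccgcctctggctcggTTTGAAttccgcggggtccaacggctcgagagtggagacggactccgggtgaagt
Ccnf: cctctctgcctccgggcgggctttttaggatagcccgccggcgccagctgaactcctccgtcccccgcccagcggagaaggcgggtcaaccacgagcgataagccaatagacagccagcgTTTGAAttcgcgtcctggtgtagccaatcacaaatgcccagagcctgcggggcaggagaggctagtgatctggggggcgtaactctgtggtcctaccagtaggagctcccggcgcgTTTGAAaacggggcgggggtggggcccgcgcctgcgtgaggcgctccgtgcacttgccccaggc
Mcm5: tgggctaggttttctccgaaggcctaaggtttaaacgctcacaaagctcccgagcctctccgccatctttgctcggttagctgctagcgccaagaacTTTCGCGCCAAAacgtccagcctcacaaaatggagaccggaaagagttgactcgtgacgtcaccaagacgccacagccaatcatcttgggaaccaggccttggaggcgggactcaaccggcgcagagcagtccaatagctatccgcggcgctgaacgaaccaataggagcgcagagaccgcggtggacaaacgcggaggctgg
Mcm6: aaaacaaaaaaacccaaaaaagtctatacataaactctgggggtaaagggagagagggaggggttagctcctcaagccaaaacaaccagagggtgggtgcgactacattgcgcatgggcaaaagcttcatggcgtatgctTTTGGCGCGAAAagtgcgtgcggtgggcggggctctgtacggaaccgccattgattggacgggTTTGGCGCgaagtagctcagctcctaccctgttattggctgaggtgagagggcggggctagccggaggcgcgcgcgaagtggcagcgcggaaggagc

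A CHR motif was found in 15 of the 19 spindle list promoters with a RefSeq window, of 23 genes (78.9%), among them those of Plk1 and Prc1. The share was 16.7% of 78 S phase promoters, of 91 genes, and 13.9% of the 10639 tested genes with a window. E2F motifs were found in none of the 19 spindle promoters, in 22 of the S phase promoters (28.2%) and in 4.07% of tested genes. The Ccnf window held 2 CHR motifs, and 2 of the 6 called higher genes with a window had one. CCAAT, also counted on both strands, was in 78.9% of spindle, 59% of S phase and 38.9% of tested promoters. In 17 of the 19 spindle and 67 of the 78 S phase windows the start of the gene itself lay inside, and over these the CHR shares were 76.5% and 16.4%, against 14% of tested genes. A letter match is a description and not a site of binding.

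**Figure D2:**
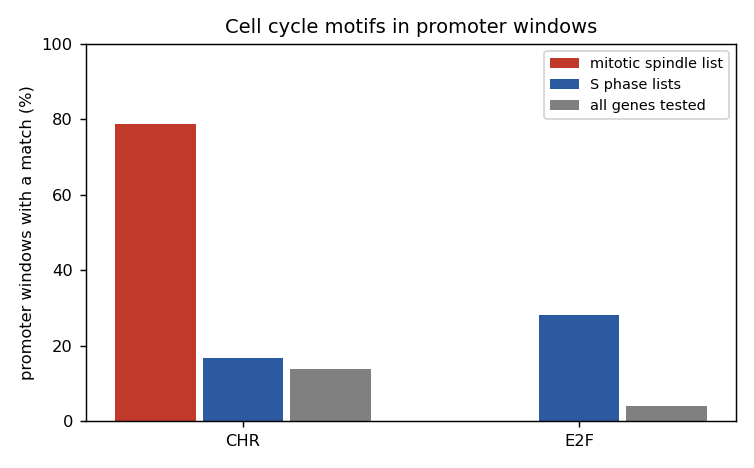
Bars give the percent of 300-base promoter windows with at least 1 match to the CHR or E2F letters, for the mitotic spindle list (19 windows), the S phase lists (78) and all tested genes (10639). The CHR bar is tallest for the spindle list (78.9%) and the E2F bar for the S phase lists (28.2%).

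Genes of premeiotic S phase were at a high level in both fractions and none of the 90 tested was called. With 1.7% called over all genes tested, few calls were due in 90 genes. On simulated data 50 of 100 changes of log2 1.5 were called, so a lack of calls does not show a lack of change. Their median difference was -0.02, with 41 positive and 49 negative and a range from -1.18 to 0.66. Of the 90, 3 had an unadjusted p below 0.05 (10.6% of genes tested, in either direction). The median level was 10.41, 10.70 and 10.62 in pre-leptotene arrays, against 10.53, 10.65, 10.90 and 10.67 in spermatogonia, and 7.53 to 8.03 in round spermatids. By sublist the median difference was -0.02 for 24 licensing genes, -0.02 for 37 fork genes, -0.08 for 16 nucleotide synthesis genes and 0.07 for 13 chromatin assembly genes. The list median ran from -0.08 to 0.08 without each array in turn.

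Among licensing genes, the helicase subunit Mcm5 read 14.20, 13.62 and 13.75 in pre-leptotene arrays, against 14.23, 13.67, 14.22 and 13.65 in spermatogonia. Mcm2 and Mcm6, of the same helicase, differed by -0.12 and -0.02, and the loading factor Cdt1 by -0.02. Cdc6, which loads that helicase onto origins, read 10.04, 9.85 and 10.35 in pre-leptotene arrays, against 10.57, 10.65, 11.39 and 10.72 in spermatogonia (difference -0.75 ± 0.24 SE, limma adjusted p = 0.14). The 2 fractions did not overlap for Cdc6, and they overlapped for Mcm5.

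At the fork, the sliding clamp Pcna differed by -0.08 and the topoisomerase Top2a by 0.66 ± 0.32. Gins2, a subunit of the replicative helicase, read 7.24, 8.05 and 7.94 in pre-leptotene arrays, against 8.29, 8.93, 9.41 and 8.29 in spermatogonia (difference -0.99 ± 0.36 SE, limma adjusted p = 0.233). The RNase subunit Rnaseh2a differed by -1.18 ± 0.40 (limma adjusted p = 0.169). It averaged 13.75 in round spermatids, so that it is also in the spermatid-high class, and with array weights it was called (adjusted p = 0.0458). In nucleotide synthesis, ribonucleotide reductase Rrm2 differed by -0.34, thymidylate synthase Tyms by -0.30 and thymidine kinase Tk1 by -0.51. Of the 16 genes of that list 8 were positive, up to 0.59 for Cad. Shmt1 (0.28 ± 0.17) and Ctps (0.33 ± 0.57) were the only 2 without overlap, both higher. Over all genes tested 1168 of 13087 did not overlap, 399 of them higher, so no direction is read from these 2. In chromatin assembly, the histone acetyltransferase Hat1 differed by -0.08 and the maintenance methyltransferase Dnmt1 by 0.20. No gene of these last groups passed the test.

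The activating E2F genes had the lowest differences of their list of 17, whose median was -0.09 with none called (1.7% of all genes tested were). E2f3 read 5.81, 6.48 and 5.81 in pre-leptotene arrays, against 6.77, 7.21, 7.83 and 6.55 in spermatogonia (difference -1.06 ± 0.31 SE, limma adjusted p = 0.0941). E2f2 read 6.45, 7.31 and 7.2 in pre-leptotene arrays, against 7.87, 8.49, 9.02 and 6.82 in spermatogonia (difference -1.06 ± 0.43 SE, limma adjusted p = 0.313). E2f1 differed by -0.86 ± 0.32 (limma adjusted p = 0.245). E2f1 and E2f3 did not overlap, and E2f2 overlapped through spermatogonia array 4.

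Both E2f2 and E2f3 were called as lower with the replicate block (-1.47 ± 0.31 and -1.24 ± 0.29, limma adjusted p = 0.00952 and 0.0215). They were also called without spermatogonia array 4, which is not separate support, since the block leaves that array out of the difference. A second probe set of E2f3 differed by only -0.13 ± 0.21, and one of E2f2 by -0.74 ± 0.34. Spermatogonia array 3 was the highest of the 7 for Cdc6, E2f2, E2f3 and Ccne2, which encodes cyclin E2.

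**Figure D3:**
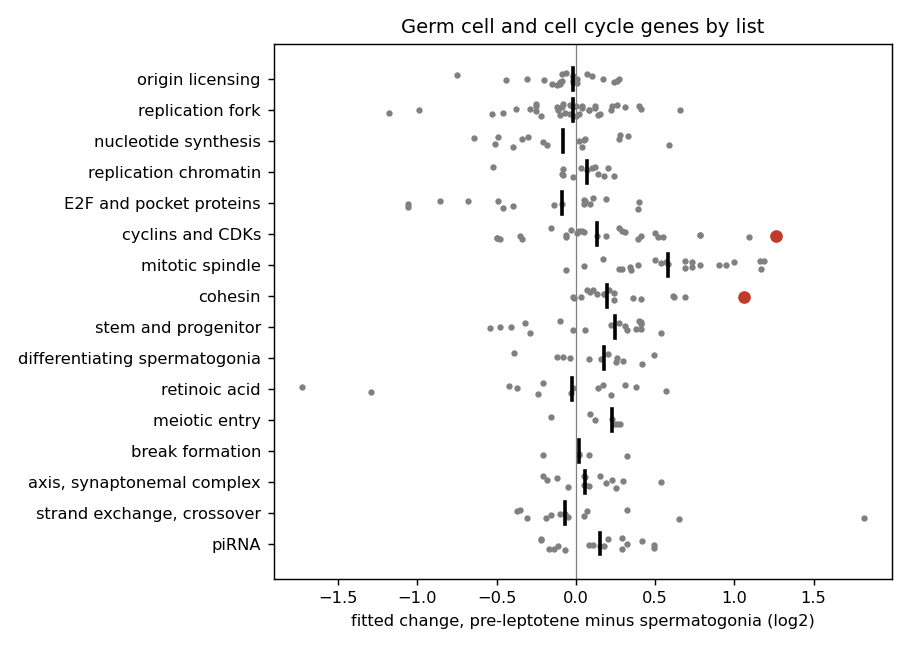
Each grey point is the fitted difference of 1 gene, pre-leptotene minus spermatogonia on the log2 scale, by list, black bars are list medians, and red points are called genes. The mitotic spindle list lies furthest to the right, with a median of 0.58, the 4 S phase sublists lie about 0, and the 2 red points are Ccnf and Sgo2a.

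Of 27 cyclins and kinases only Ccnf was called (3.7%, against 1.7% of all genes tested), and their median difference was 0.13. Cdk1, the kinase of mitotic and meiotic division, differed by 0.78 ± 0.34, cyclin A2 (Ccna2) by 0.27 and cyclin E1 (Ccne1) by 0.05. Of 18 cohesin genes only Sgo2a was called (5.56%, against 1.7% of all genes tested). Of the 18 differences 16 were positive, against 6252 of 13087 over all genes tested, and the median was 0.20. The meiotic cohesin Smc1b differed by 0.41 ± 0.21 and its partner Rec8 by 0.03 ± 0.40.

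Genes of later prophase events showed no called change, in lists of at most 17 genes, where 1.7% of all genes tested were called. The medians were 0.02 over 5 break formation genes, 0.06 over 15 axis and synaptonemal complex genes, -0.07 over 13 strand exchange and crossover genes and 0.15 over 17 piRNA genes. Without spermatogonia array 4 the first 2 were -0.06 and -0.01. Prdm9, which marks recombination hotspots, differed by 0.08, Spo11 by 0.02, the axis protein Sycp3 by 0.15, Hormad1 by 0.25 and the recombinase Dmc1 by -0.16. Meiob, a single-strand binding protein of meiotic recombination, read 5.84, 7.89 and 4.10 in pre-leptotene arrays, against 4.21, 3.84, 4.51 and 3.91 in spermatogonia (difference 1.82 ± 0.76 SE, limma adjusted p = 0.346). Its pre-leptotene arrays spanned a wide range and overlapped those of spermatogonia. Bco1, a carotene-cleaving enzyme of the retinoic acid list, differed by -1.73 ± 0.50 (limma adjusted p = 0.0933). It was called without spermatogonia array 3 or 4 and with the replicate block (-2.10 ± 0.32, limma adjusted p = 0.000969), which leaves array 4 out of the difference. Bco1 averaged 7.83 in round spermatids and is in the spermatid-high class.

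Most of the lower genes were genes high in round spermatids, the haploid cells formed after the meiotic divisions. Of 2846 tested spermatid-high genes 183 were lower (6.43%, against 1.64% of all genes tested), none was higher, and the median difference was -0.43. The class used none of the 7 arrays. Among the 32 tested genes of the spermatid list all differences were negative, with a median of -2.16, and 12 were called (37.5%), or 21 with the replicate block. The 12 were 1, 14 and 0 without pre-leptotene array 1, 2 and 3 in turn, and 1, 2, 16 and 21 without spermatogonia array 1, 2, 3 and 4 in turn. The list median was 6.62, 8.44 and 7.12 in pre-leptotene arrays, against 10.50, 11.93, 9.30 and 8.53 in spermatogonia, 12.02 to 12.49 in round spermatids, and 3.04 and 3.34 in Spo11-/- pre-leptotene cells and spermatogonia. All pre-leptotene arrays lay below all spermatogonia arrays, and spermatogonia arrays 1 and 2 were the highest.

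Capza3, a capping protein subunit of sperm, read 5.25, 7.59 and 6.83 in pre-leptotene arrays, against 9.87, 11.33, 9.0 and 8.30 in spermatogonia (difference -3.07 ± 0.61 SE, limma adjusted p = 0.0365). The spermatid kinases Tssk2 and Tssk3 differed by -2.93 and -2.86, and the sperm fascin Fscn3 by -2.81. Ppp1r2-ps7 fell by 3.82 (SE 0.65, limma adjusted p = 0.0232), Kctd16 by 3.64 and Zcchc13 by 3.41. Pgk2, a glycolytic enzyme of late prophase and spermatids, differed by -2.59 ± 0.58. It was the only 1 of 15 late prophase list genes called (6.67%, against 1.7% of all genes tested). With the replicate block 6 of them were called, against 5.81% of all genes tested. The list had 4 calls without pre-leptotene array 2 or spermatogonia array 3 or 4, and 0 without any of the other 4 arrays. Of 579 genes high in late prophase but not in spermatids, none was called in limma, and 2 were called with the replicate block (1.7% and 5.81% of all genes tested). Of the 579, 19 had an unadjusted p below 0.05 (10.6% of genes tested, in either direction).

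The difference was larger in genes with a larger excess in round spermatids. The median was -0.16 in 1173 genes with an excess of 2 to 4 over the Spo11-/- arrays, -0.35 in 812 with 4 to 6, -1.14 in 505 with 6 to 8, and -1.45 in 356 with 8 or more. The count of 183 was 7, 205 and 0 without pre-leptotene array 1, 2 and 3 in turn. It was 3, 35, 364 and 493 without spermatogonia array 1, 2, 3 and 4 in turn, and 5 without arrays 1 and 2 together. Spermatogonia arrays also varied most in these genes, with a median SD of 0.59. It was 0.53 in leptotene/zygotene, 0.39 in pre-leptotene and 0.35 in round spermatid arrays. The fit of the 2 fractions alone called none.

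Markers of somatic cells were lower in pre-leptotene cells for leukocytes, T cells and stroma. Of 56 tested somatic markers 9 were called lower (16.1%, against 1.64% of all genes tested) and none higher. The filter could let in markers high only in spermatogonia, so part of this share can come from the choice of genes tested. Without the filter 2 of 79 markers were called, against 10 of all 18193 genes. Their median difference was then -0.21, against -0.52 with the filter. With the replicate block 15 were lower, against 5.43% of all genes tested. Lyz2, the lysozyme of myeloid cells, read 5.95, 3.35 and 3.31 in pre-leptotene arrays, against 7.68, 8.89, 9.17 and 10.28 in spermatogonia (difference -4.81 ± 0.58 SE, limma adjusted p = 0.00127). Ptprc (CD45), the common leukocyte antigen, read 5.31, 2.68 and 3.73 in pre-leptotene arrays, against 7.66, 6.99, 7.84 and 9.39 in spermatogonia (difference -4.06 ± 0.52 SE, limma adjusted p = 0.00172). In both, only array 1 of pre-leptotene was above background, so that the sizes rest on values below it in the other 2 arrays. Neither overlapped, and pre-leptotene array 1 was the highest of its fraction in both.

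Each of 3 somatic lists had 3 called genes, all lower, against 1.64% lower over all genes tested. The macrophage and leukocyte list (15 tested) had Lyz2, Ptprc and Aif1, and its median was 5.99, 2.94 and 3.31 in pre-leptotene arrays, against 7.66, 6.61, 4.84 and 6.78 in spermatogonia. The T and NK cell list (6 tested) had Ccl5, Cd3g and Cd3e, each below background in all pre-leptotene arrays, with falls of at least 1.90, 0.52 and 0.68. Genes needed log2 of at least 4 in at least 2 wild-type arrays, so a gene high only in spermatogonia could enter this list. Without that filter the list held 11 genes, 1 of them positive and none called, with a median difference of -1, against -1.72 with it. The peritubular and stromal list (12 tested) had Dcn, Col3a1 and Col1a2, at -4.23 ± 1.03, -3.37 ± 0.70 and -3.23 ± 0.70. Aif1, Dcn and Col3a1 are also in the spermatid-high class, at means of 12.27, 8.76 and 6.92 in round spermatids. In Spo11-/- pre-leptotene cells, where Ptprc read 12.91, Aif1 read 4.56, Dcn 11.63 and Col3a1 7.74. Without array 4 of spermatogonia 4 stromal genes were called and the list median moved to -0.66, against -1.16 with it. No stromal gene was called without pre-leptotene array 2 or 3 or spermatogonia array 1 or 2, and no T or NK cell gene without pre-leptotene array 1 or 3 or spermatogonia array 2, while 1 was without pre-leptotene array 2. Leukocyte calls were 7, 3 and 2 without pre-leptotene array 1, 2 and 3 in turn and 2, 3, 5 and 3 without spermatogonia array 1, 2, 3 and 4. The stromal median level was 6.64, 5.77 and 5.17 in pre-leptotene arrays, against 7.36, 7.78, 6.34 and 9.84 in spermatogonia. None of 9 Sertoli, 6 Leydig, 2 B cell, 5 endothelial and 1 red blood cell genes was called (1.7% of all genes tested were), with medians of 0.09, -0.16, 0.07, 0.20 and 0.06. The endothelial median was 0.65 without spermatogonia array 4.

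**Figure D4:**
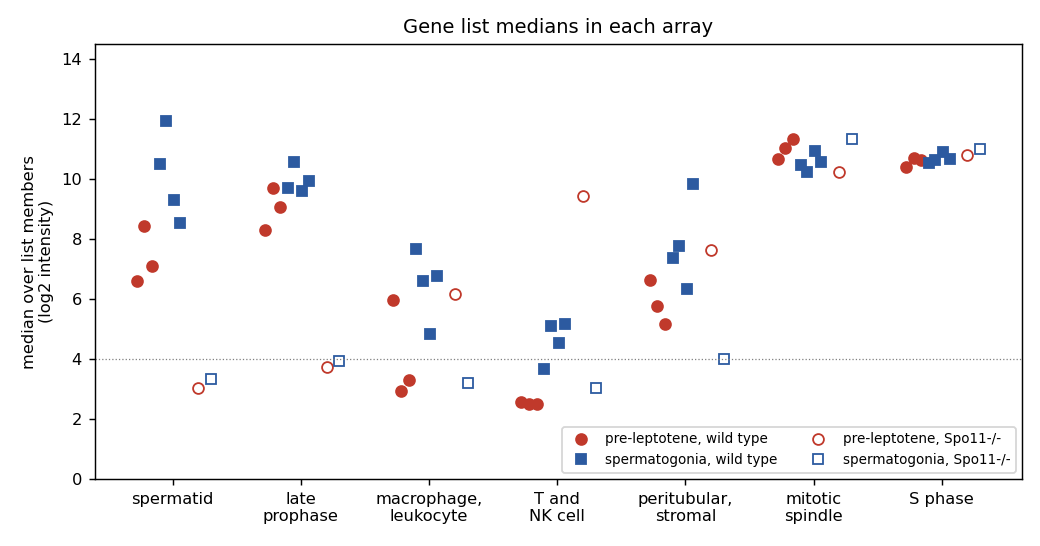
Points are the median log2 intensity over the tested members of a list in 1 array: filled circles, 3 wild-type pre-leptotene arrays; filled squares, 4 wild-type spermatogonia arrays; open symbols, the Spo11-/- array of each fraction. The dotted line is log2 4. A gene high only in spermatogonia could be among the tested members, which bears on the T and NK cell medians. Spermatid, T and NK cell medians lie lower in every wild-type pre-leptotene array than in any wild-type spermatogonia array, and the Spo11-/- pre-leptotene array has the highest T and NK cell median, 9.45.

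The 26 remaining lower genes were on no list, and several, such as Cd53, Cd52, Plek and Lcp1, are known from leukocytes. The 10 named, those with the largest fitted falls among genes whose arrays did not overlap, were S100a4 (-4.44), Lyz1 (-4.22), Cd53 (-3.11), Fgl2 (-3.0), S100a6 (-2.97), Apoe (-2.93), Cd52 (-2.92), Plek (-2.69), Arhgdib (-2.24) and Lcp1 (-2.18). S100a4, a calcium-binding protein of motile and immune cells, read 2.82, 2.74 and 4.70 in pre-leptotene arrays, against 6.70, 7.78, 7.84 and 9.12 in spermatogonia (±0.47 SE, limma adjusted p = 0.000511). Cd53, a tetraspanin of leukocytes, read 4.25, 3.02 and 3.05 in pre-leptotene arrays, against 6.03, 6.39, 6.26 and 7.54 in spermatogonia (±0.33 SE, limma adjusted p = 0.000511). Neither overlapped, and in both only 1 of the 3 pre-leptotene arrays was above background, as was also so for Plek. Il1b differed by -3.30 ± 0.79 and was left out of the 10 because its arrays overlapped. Fgl2 and Arhgdib were below background in all pre-leptotene arrays, with falls of at least 2.5 and 1.0. Here too the filter could let in genes high only in spermatogonia, and without it 7 remaining genes were called. The count of 34 remaining genes was 6 without pre-leptotene array 3, 15, 19, 56 and 96 without spermatogonia array 1, 2, 3 and 4 in turn, and 146 with the replicate block.

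In the Spo11-/- pair most of the remaining lower genes went the other way. Of the 26, 23 were at least 2 higher in Spo11-/- pre-leptotene cells than in Spo11-/- spermatogonia (4.58% of genes tested), in 1 array each, and the median was 4.78. The 9 somatic markers had a median of 5.98. The 183 spermatid-high genes had one of -0.06, with 125 of them below log2 4 in both arrays, but this class was chosen for lower levels in the Spo11-/- arrays than in round spermatids, so nothing is read from it. The T and NK cell list read 9.45 in Spo11-/- pre-leptotene cells, against 3.03 in Spo11-/- spermatogonia, and the leukocyte list 6.16 against 3.22. Whether wild-type and Spo11-/- differences differ was not tested.

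**Figure D5:**
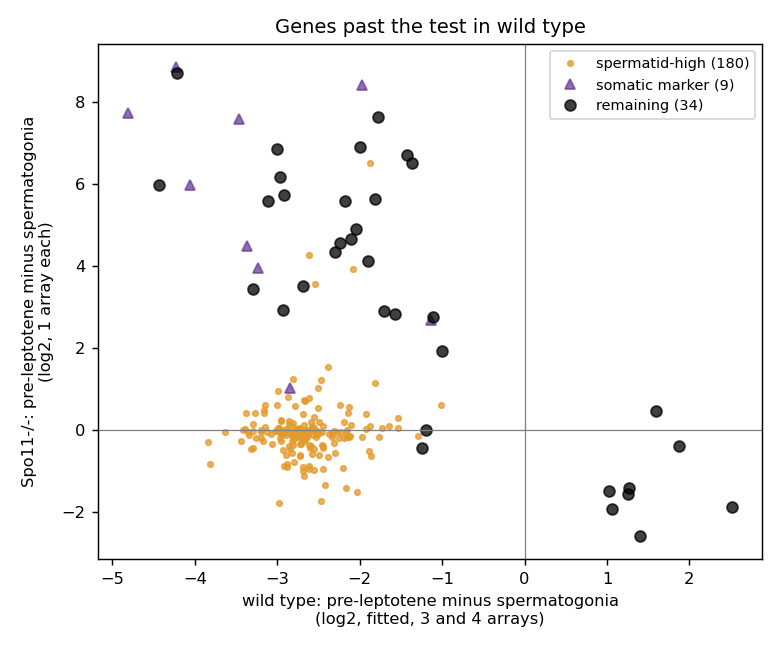
Each point is 1 of the 223 genes called in wild type, with the fitted wild-type difference on the horizontal axis and the Spo11-/- difference (1 array each) on the vertical axis, both pre-leptotene minus spermatogonia on the log2 scale. Spermatid-high genes (180 outside the somatic lists) were chosen for lower levels in Spo11-/- arrays than in round spermatids and lie mostly near 0 on the vertical axis, 23 of the 26 remaining lower genes lie at 2 or above, and 7 of the 8 higher genes lie below 0.

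Rfx3 and Nap1l5 were the 2 of the 26 that were not at least 1 higher in Spo11-/- pre-leptotene cells (24 were), and were singled out after their values were seen. Nap1l5, a protein related to nucleosome assembly factors, read 4.03, 3.55 and 3.71 in pre-leptotene arrays, against 5.02, 5.01, 4.96 and 4.87 in spermatogonia (difference -1.20 ± 0.17 SE, limma adjusted p = 0.00491). All pre-leptotene arrays lay below all spermatogonia arrays, close to background. It read 4.44 in Spo11-/- pre-leptotene cells, against 4.43 in Spo11-/- spermatogonia. Rfx3, a factor of cilium genes, differed by -1.24 ± 0.29 and averaged 7.85 in round spermatids.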

How the data were processed

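RNA was labelled for Affymetrix mouse arrays, and the deposited values are intensity per probe set, made with GCRMA per the submitters' processing notes, which give no version or settings. They ran from 1.48 to 107451 and were read as linear and taken as log2(value + 1). Of 45037 probe sets, 34945 had exactly 1 gene symbol (932 several, 9160 unlisted, all left out), 34741 of them joined to RefSeq by Entrez identifier. This gave 18193 genes, each represented by its brightest probe set. The number of arrays limits the precision.

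Genes with log2 of at least 4 in at least 2 of the 20 wild-type arrays were kept (13087) and tested in limma 3.58.1 (R 4.3.3), with 1 mean per fraction, lmFit and eBayes. On simulated data, 50 of 100 genes changed by log2 1.5 and 92 of 100 changed by 3 were called, with 7 false calls. With 3 and 4 arrays, an exact two-sided permutation test could not go below p = 0.0571 and was not used.

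Gene lists held 445 entries, 414 of them on the array. Members and lists were chosen with earlier results of these data known. Genes were named by rule: the 10 largest rises and falls without overlap among remaining called genes, leaving out predicted names; the 4 largest changes in each later-stage class; up to 4 genes of each list; and a set of marker and S phase genes looked at in every case.

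Replicate numbers are shared in the labels, which do not say what they mark. Deviations of same-numbered pre-leptotene and spermatogonia arrays correlated at 0.53, 0.65 and 0.23 over genes tested, all above 0.1. The numbers were therefore taken to pair the arrays, but only in the run with the replicate block. The main fit is unpaired, as are its SE and adjusted p. Promoter windows came from RefSeq (27025 genes).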

Additional observations from a re-analysis of the deposited data

Results flagged for a closer look

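In 10 of 125 named genes and 1 of 29 list medians, 1 of the 4 spermatogonia arrays lay far from the other 3, by a gap over the whole range above 0.829. Chance gives about 1 in 20. Spermatogonia array 4 was the highest for Lyz1 (0.87), S100a6 (0.845), Egfl7 (0.879), Tek (0.972) and the retinoic acid list median (0.881), and the lowest for Ms4a1 (0.896) and Rec8 (0.879). Array 1 was the lowest for Tdrd12 (0.843), Inhbb (0.874) and Cd3g (0.85), and array 2 for Rec114 (0.839).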

How the results depend on the processing

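Total calls (223) were 36 with median centring, 38 with quantile normalization, 54 with log2(value + 16), 10 with no filter, 99 with the mean of all probe sets, 830 with array weights, 24 with the spermatid list median as covariate, 760 with the replicate block, and 0 in the fit of the 2 fractions or of these and leptotene/zygotene alone. In the same order, spermatid-high calls (183) were 15, 20, 38, 1, 78, 653, 0, 600 and 0, somatic calls (9) 3, 4, 3, 2, 5, 17, 2, 15 and 0, and remaining calls (34) 18, 15, 14, 7, 17, 161, 22, 146 and 0. Remaining calls were 15 with log2 of at least 6 in at least 3 arrays. Late-prophase-high calls (0) were 2 with array weights and 2 with the replicate block. S phase calls (0) were 1 with array weights, and their median (-0.02) was -0.19 with the spermatid covariate. Without 1 array each, totals ran from 8 to 596, spermatid-high from 0 to 493, somatic from 2 to 11, remaining from 6 to 96, and the S phase median from -0.08 to 0.08. Without the first and second spermatogonia arrays together the total was 39, with 5 spermatid-high and 5 somatic, and the S phase median was -0.18. With each class set against leptotene/zygotene arrays, spermatid-high calls were 178 and remaining calls 40. Higher calls were 3.59% of the total, against 22.2% with median centring, 15.8% with quantile normalization, 11.1% with log2(value + 16) and 0% with the covariate. Median centring moved the median of all genes to 0.12, and that of the S phase genes also to 0.12. Fscn3 was at 0.16 with the covariate, the one reversal among called genes that are named, and 17 of the 32 spermatid list genes were positive there. The spermatid list makes up the covariate, so nothing is read from its genes or from the spermatid-high count in that run. The causes were not tested. Of the values of named genes under alternatives, 2293 kept their side of the threshold, 291 fell below it and 15 passed it. The direction of genes called in neither run was not counted. In the fit of the 2 fractions alone 34 fell below it. The block changed the calls of E2f2, E2f3, Bco1 and Cenpf and of genes counted above. The mitotic spindle median was added after the data were seen.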
